A study of Sus scrofa with 7 samples.

Results

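The cytosolic ribosomal proteins and the translation elongation factors were followed in 3 cell types of the pig. Members were every row of the gene tables whose symbol was RPL or RPS followed by a number, with or without a letter, or was one of RPSA, RPLP0, RPLP1, RPLP2, EF1ALPHA, EEF2, EEF1B2, EEF1D and EEF1G. This gave 77 of the 29510 rows, carrying 71 symbols. Of these rows, 29 were proteins of the small ribosomal subunit, 44 were proteins of the large subunit and 4 were elongation factors (EF1ALPHA, EEF1B2, EEF1G and EEF2). The filter on low counts kept 67 members, 25 of the small subunit, 38 of the large subunit and all 4 elongation factors. The other 10 were not tested, because 9 of them had no count in any library and the remaining one, a further RPS16 row on chromosome 1, was close to zero.

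A ribosome is built from a small subunit, which reads the mRNA, and a large subunit, which joins the amino acids. Each subunit holds ribosomal RNA and one copy of most of its proteins, so cells generally make these proteins in matched amounts. Their mRNAs, like those of the elongation factors, belong to the TOP mRNAs, a class that starts with a run of pyrimidines and whose translation is set by mTOR signalling. Elongation factor 1-alpha brings each aminoacyl-tRNA to the ribosome, the subunits EEF1B2, EEF1D and EEF1G recharge it with GTP, and EEF2 moves the ribosome along by one codon. Growing stem cells use a large part of their mRNA for this machinery.

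RNA was sequenced from 3 lines of porcine extra-embryonic endoderm cells (pXEN1, pXEN2 and pXEN3, called XEN in the labels), 2 lines of naïve-like embryonic stem cells (nESC1 and nESC2) and 2 lines of primed embryonic stem cells (pESC1 and pESC2), with 1 library per line. The pXEN lines came from the inner cell mass of parthenogenetic blastocysts, which have no paternal genome, and grew on inactivated mouse embryonic fibroblasts in LCDM medium with LIF, the GSK3 inhibitor CHIR99021, (S)-(+)-dimethindene maleate and minocycline. The nESC lines also grew on mouse embryonic fibroblasts, with FGF, LIF, CHIR99021, the MEK inhibitor PD0325901, the TGFβ receptor inhibitor SB431542 and doxycycline. The pESC lines, labelled as converted from naïve-like cells, grew on STO cells, a mouse fibroblast line, with activin A, bFGF, EGF and LIF. The passages were 26, 26 and 23 for the pXEN lines, 21 and 22 for the nESC lines and 20 for both pESC lines. Medium differed with cell type in every comparison, and the feeder cells differed between the pESC lines and the others, so their parts cannot be told apart from that of cell type. Each line was taken as 1 replicate, and p values measure only the spread between these libraries.

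The libraries held between 10408164 and 12995720 counts, and 64 of the 67 tested members had at least 100 counts in every library, so that counting error was small for nearly all of them. Levels are given as CPM, the usual scaling of counts by library size, here after TMM correction of that size. Fold changes and standard errors (SE) were taken from the quasi-likelihood fit of edgeR, p values were adjusted by the Benjamini-Hochberg method over the 17447 genes tested, and a gene was called at an adjusted p below 0.05. The 8 extra-embryonic endoderm markers summed to between 2523 and 3219 CPM in the pXEN lines and to between 39.3 and 54.9 CPM in the ESC lines, although SOX7 was at or near 0 throughout. The pluripotency marker SOX2 had 1633 to 2729 counts in the ESC libraries and 0, 30 and 0 in pXEN1, pXEN2 and pXEN3, whereas POU5F1 had at most 5 counts in any library. Other markers of the same list did not follow SOX2. NANOG had 177, 60 and 166 counts in the pXEN lines, 0 and 2 in the nESC lines and 21 and 22 in the pESC lines, and TDGF1 had 95, 106 and 143 in pXEN, 0 in both nESC lines and 283 and 305 in pESC. The 7 pluripotency markers with a row summed to between 19.2 and 28.8 CPM in pXEN, to 138 and 171 CPM in nESC and to 432 and 450.0 CPM in pESC. Trophoblast markers, mostly TFAP2C, summed to 135 and 122 CPM in the pESC lines and to at most 4.53 CPM elsewhere. The line pXEN2 stood apart: its fibroblast markers summed to 536 CPM, against 10.7 and 30.3 in pXEN1 and pXEN3, 43.99 and 45.65 in the nESC lines and 117 and 187 in the pESC lines, and its rows on chromosome Y summed to 3.36 CPM, against at most 0.918 elsewhere. Most of the 536 CPM came from COL3A1 (376 CPM) and 1 COL1A2 row (109 CPM). Not every fibroblast marker was highest in pXEN2. TWIST1 had 0.089 CPM there, against 11.1 and 12.98 in the nESC lines. DCN had 2.12 CPM there, against 27.4 and 58.3 in the pESC lines. Because pXEN2 differed in these sums, the counts of members called lower are given with and without this line.

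The members took a smaller part of the library in pXEN cells than in either ESC type. They held 5.88%, 7.26% and 6.03% of all counts in pXEN1, pXEN2 and pXEN3, 10.9% and 10.8% in nESC1 and nESC2, and 9.53% and 10.18% in pESC1 and pESC2. The mean was 6.39% ± 0.76 (SD, n = 3) for pXEN, 10.8% ± 0.089 (n = 2) for nESC and 9.85% ± 0.46 (n = 2) for pESC, and no pXEN line reached an ESC line. All 3 groups of members took part in this, with the small subunit at 1.89%, 3.13% and 2.74% of counts in pXEN, nESC and pESC, the large subunit at 2.70%, 4.21% and 3.96%, and the elongation factors at 1.80%, 3.48% and 3.15%. With n of 3 against 2 an exact two-sided rank test cannot fall below a p of 0.2, and no test of the shares is given. Transcripts of the mitochondrial genome took 4.80%, 6.41% and 4.65% of counts in the pXEN lines, 8.05% and 8.15% in the nESC lines and 6.27% and 6.66% in the pESC lines. They moved in the same direction as the members. As a share of the counts outside the mitochondrial genome, the members held 6.75% in pXEN, 11.8% in nESC and 10.5% in pESC. In bulk RNA, a larger number of cells with little of a transcript and a lower level in every cell cannot be told apart.

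**Figure D1:**
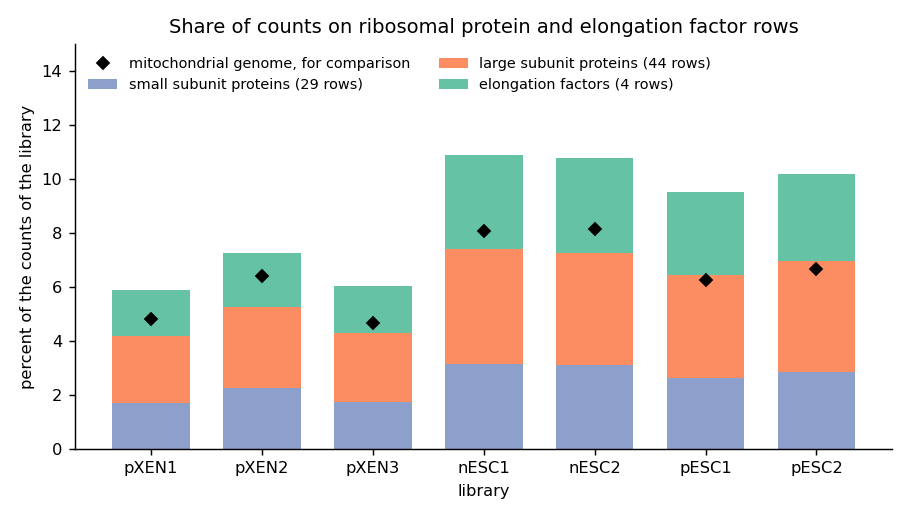
Percent of the counts of each library (vertical axis) that fell on the members, by library (horizontal axis). The stacked bars are the small subunit, large subunit and elongation factor rows and the diamonds the mitochondrial genome. The 3 pXEN bars end between 5.88% and 7.26%, and the 4 ESC bars between 9.53% and 10.9%.

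Against nESC, 39 of the 67 tested members (58.2%) were lower in pXEN cells and 0 were higher. Over all genes tested, 26.2% were called lower and 28.3% higher in this comparison. Called or not, 65 members had a log2 fold change below 0, against 49.7% of all genes. The median log2 fold change of the members was −0.44 (1.36-fold lower), with quartiles at −0.66 and −0.29, against 0.00 for all genes tested. For 48 members, every pXEN library was below both nESC libraries, a pattern that 35.3% of all genes tested had. The called members were 16 of 25 small subunit proteins, 19 of 38 large subunit proteins and all 4 elongation factors. At an unadjusted p below 0.05, 0 members were higher and 41 lower (61.2%), against 30.8% and 29.0% of all genes, and DESeq2 and limma also called 0 members higher.

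Against pESC, 22 of the 67 members (32.8%) were lower in pXEN cells and 0 were higher, where 24.4% of all genes tested were called lower and 23.9% higher. Called or not, 64 members lay below 0, against 50.5% of all genes. The median log2 fold change of the members was −0.35 (1.28-fold lower), against −0.01 for all genes. Here every pXEN library was below both pESC libraries for 34 members, against 34.8% of all genes. The called members were 7 of 25 small subunit proteins, 11 of 38 large subunit proteins and all 4 elongation factors. Neither subunit had more than 28.9% of its proteins called, nearer to the 24.4% of all genes than the 32.8% of all members. At an unadjusted p below 0.05, 1 member (RPL31 on chromosome 3) was higher and 36 were lower (53.7%), against 26.9% and 27.9% of all genes, and DESeq2 and limma called 0 members higher. Both comparisons use the same pXEN libraries and are not independent of each other.

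The counts changed with the lines used. Without pXEN2, 58 members were lower against nESC and 53 against pESC, among them all 39 and all 22 of the members called with every line. These were 86.6% and 79.1% of the members, against 29.8% and 28.9% of all genes. Against nESC the count was 23 without pXEN1 (34.3%, against 22.7% of all genes), 25 without pXEN3 (37.3%, against 23.7%), 18 without nESC1 (26.9%, against 18.7%) and 23 without nESC2 (34.3%, against 19.3%). Against pESC it was 8 without pXEN1 (11.9%, against 20.8% of all genes), 8 without pXEN3 (11.9%, against 21.3%), 9 without pESC1 (13.4%, against 15.9%) and 7 without pESC2 (10.4%, against 15.5%). It was 12 without either nESC line (17.9%, against 22.3% and 22.2%). Against pESC the share of members called lower was thus above that of all genes with every line or without pXEN2, and below it when any other line was left out. The median log2 fold change stayed between −0.62 and −0.38 against nESC and between −0.50 and −0.28 against pESC whichever line was left out.

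**Figure D2:**
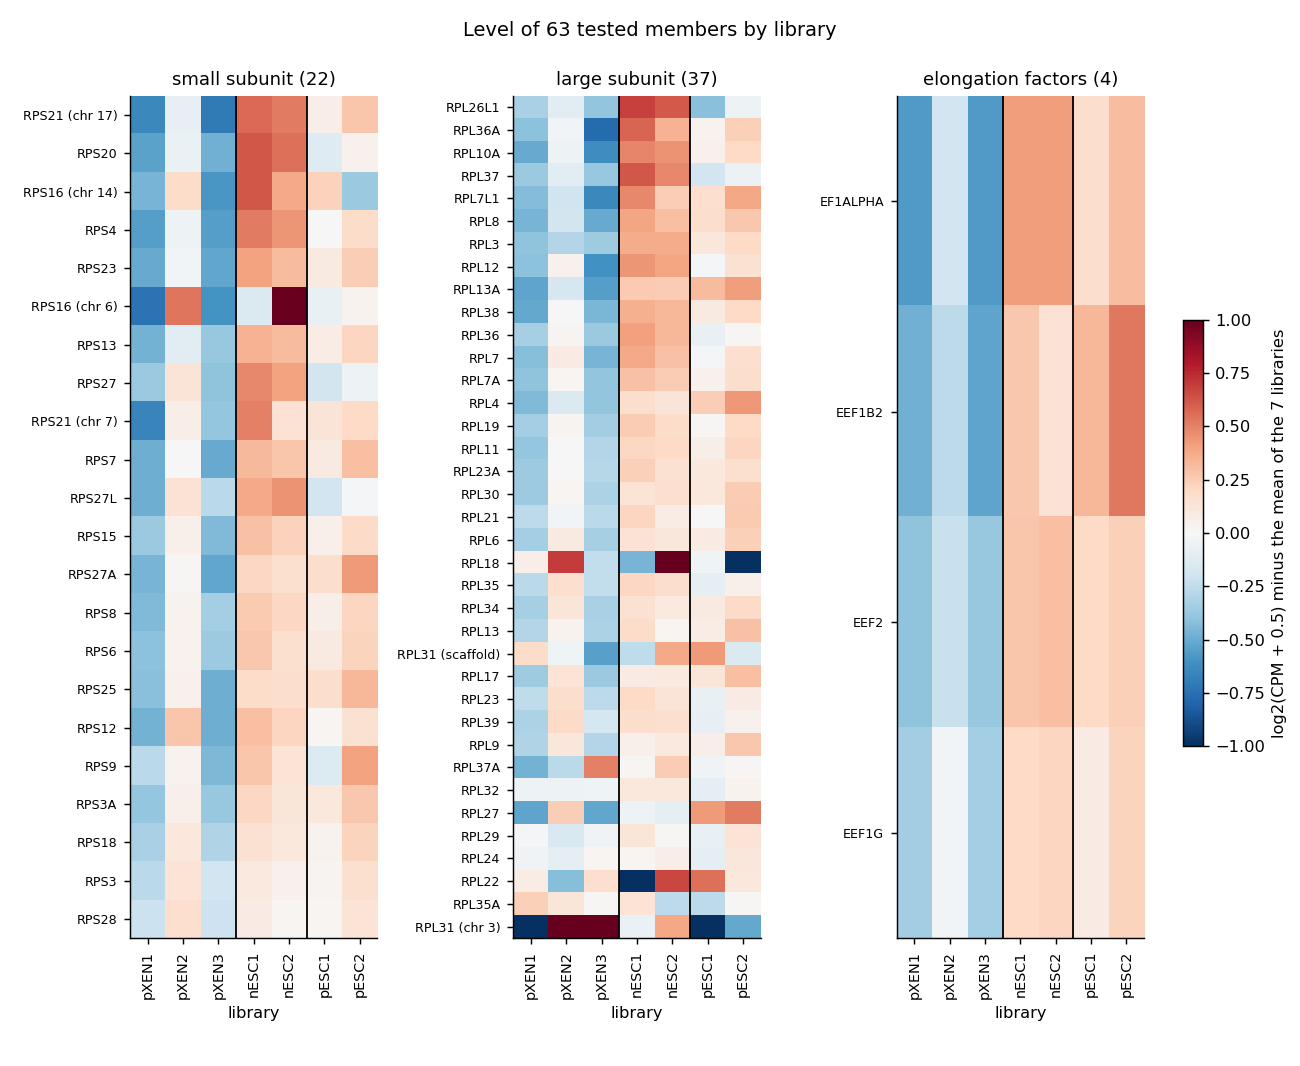
Level of 63 tested members in each library, as log2(CPM + 0.5) minus its mean over the 7 libraries, in 3 panels by role, with members in rows, libraries in columns and colours ending at −1 and 1. The columns of pXEN1 and pXEN3 are blue for most members, that of pXEN2 is paler, and the nESC columns are red for most members.

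Each of the 4 elongation factors was lower in pXEN cells against both ESC types. EF1ALPHA, which carries aminoacyl-tRNA to the ribosome and lies at chromosome 1, 103474791 to 103477893 in the Sscrofa10.2 build, was the member with the most counts. Its level was 11204, 14578 and 11244 CPM in the pXEN lines, 22239 and 22180 CPM in the nESC lines and 18722 and 20624 CPM in the pESC lines. The pXEN lines lay below all 4 ESC lines without overlap. Its log2 fold change was −0.85 ± 0.14 (SE) against nESC (edgeR adjusted p = 0.00129) and −0.67 ± 0.14 against pESC (adjusted p = 0.00493), where limma on log2(FPKM + 0.1) alone of 17 alternatives gave no call (adjusted p = 0.0571). This single gene took 1.05% to 1.31% of all counts in pXEN and 2.00% to 2.36% in the ESC lines. Per length it ranked 7th, 5th and 2nd of all genes by mean FPKM in pXEN, nESC and pESC.

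EEF1B2, the exchange factor that reloads elongation factor 1-alpha with GTP, had 761, 884 and 733 CPM in pXEN, 1275 and 1170 CPM in nESC and 1332 and 1530 CPM in pESC. It was the member with the largest called change against pESC, at a log2 fold change of −0.85 ± 0.12 (edgeR adjusted p = 0.000718), and it was also lower against nESC, at −0.62 ± 0.12 (adjusted p = 0.00282). EEF1G, a structural subunit of the same complex, had 1795, 2242 and 1813 CPM in pXEN, 2622 and 2655 CPM in nESC and 2430 and 2678 CPM in pESC. Its log2 fold changes of −0.44 ± 0.12 (edgeR adjusted p = 0.0177) and −0.39 ± 0.12 (adjusted p = 0.0323) were the smallest of the 4. The EEF1G call against nESC was lost without pXEN1, pXEN3, nESC1 or nESC2 (edgeR adjusted p up to 0.079), and that against pESC in 8 of 17 alternatives, among them every left-out line but pXEN2 (up to 0.189 without pESC2). The calls of EEF1B2 and EEF2 held in all 17 alternatives. EEF2, the translocase, had 4166, 4713 and 4237 CPM in pXEN, 6691 and 6777 CPM in nESC and 6314 and 6507 CPM in pESC, with log2 fold changes of −0.62 ± 0.10 (edgeR adjusted p = 0.00108) and −0.55 ± 0.10 (adjusted p = 0.00247). None of the 4 passed the test between pESC and nESC. The symbol EEF1D had no row, but a row without a symbol described as elongation factor 1-delta, on chromosome 4, had 293, 344 and 255 CPM in pXEN, 601 and 577 CPM in nESC and 476 and 499 CPM in pESC. It was lower in pXEN against nESC (log2 fold change −0.99, edgeR adjusted p = 0.000425) and against pESC (−0.71, adjusted p = 0.00277). That row was outside the rule for members and was named after its values were seen.

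All 25 tested small subunit proteins had log2 fold changes below 0 in both pXEN comparisons, with medians of −0.50 against nESC and −0.36 against pESC. The largest called change belonged to the RPS21 row on chromosome 17 (69172955 to 69173861). This row had 253, 373 and 242 CPM in pXEN, 587 and 568 CPM in nESC and 414 and 480 CPM in pESC. Its level is taken as uncertain, because reads can be split between copies. It was lower by a log2 fold change of −0.997 ± 0.19 against nESC (edgeR adjusted p = 0.00253) and −0.63 ± 0.19 against pESC (adjusted p = 0.0249), and the second call was lost without pXEN1, pXEN3, pESC1 or pESC2 (adjusted p up to 0.158). RPS6, the substrate of the S6 kinases, had 1347, 1841 and 1396 CPM in pXEN, 2158 and 2010 CPM in nESC and 1908 and 2089 CPM in pESC. It passed the test against nESC (−0.45 ± 0.15, edgeR adjusted p = 0.0325) and missed it against pESC (−0.39 ± 0.15, adjusted p = 0.0609). The RPS6 call was lost in 9 of 17 alternatives, among them every left-out line but pXEN2 (edgeR adjusted p up to 0.152 without nESC1). RPS13 had 414, 536 and 444 CPM in pXEN and 605 and 669 CPM in pESC, a change of −0.46 ± 0.13 (edgeR adjusted p = 0.0184) that was not called without pXEN1, pXEN3, pESC1 or pESC2 (up to 0.136). Among the 9 small subunit proteins that missed the threshold against nESC, RPS28 was nearest to 0, with 440 to 575 CPM in pXEN and 541 and 520 CPM in nESC.

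The large subunit proteins had medians of −0.32 and −0.34, with log2 fold changes from −0.93 to 0.58 against nESC and from −0.77 to 1.502 against pESC. RPL3, which reaches towards the peptidyl transferase centre, had 1706, 1840 and 1758 CPM in pXEN, 2909 and 2909 CPM in nESC and 2436 and 2582 CPM in pESC. Its SE was 0.09 in both comparisons, with log2 fold changes of −0.72 (edgeR adjusted p = 0.000335) and −0.51 (adjusted p = 0.00259). RPL13A, also known as part of a complex that silences inflammatory mRNAs, had 1059, 1364 and 1043 CPM in pXEN, 1832 and 1822 CPM in nESC and 1900 and 2042 CPM in pESC. Its log2 fold changes were −0.66 ± 0.13 (edgeR adjusted p = 0.00369) and −0.77 ± 0.13 (adjusted p = 0.00209). The span listed for RPL13A overlapped 5 other coding rows with counts. RPL38, which mouse embryos need for the translation of Hox mRNAs, had 262, 373 and 272 CPM in pXEN, 478 and 471 CPM in nESC and 399 and 430 CPM in pESC, with log2 fold changes of −0.65 ± 0.16 (edgeR adjusted p = 0.00833) and −0.46 ± 0.16 (adjusted p = 0.0423). The RPL38 call against pESC was lost with the replicate block and without any line but pXEN2 (edgeR adjusted p up to 0.198 without pESC2). The calls of RPL3 and RPL13A in both comparisons and that of RPL38 against nESC held in all 17 alternatives.

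RPL11, which restrains MDM2 when ribosome assembly fails, had 717, 935 and 766 CPM in pXEN, 1081 and 1076 CPM in nESC and 974 and 1086 CPM in pESC. It passed the test against nESC (−0.42 ± 0.13, edgeR adjusted p = 0.025) and missed it against pESC (−0.35 ± 0.13, adjusted p = 0.0536). The RPL11 call was lost with the replicate block and without pXEN1, pXEN3, nESC1 or nESC2 (edgeR adjusted p up to 0.0993). Among the smallest called changes were those of RPL23A and RPL30, at −0.41 and −0.36 against nESC and −0.34 and −0.40 against pESC. Of the 17 alternatives, 5 and 10 gave no call against nESC for RPL23A and RPL30, and 8 and 7 gave none against pESC. With every line, RPL27 was the one member called against pESC and not against nESC. It had 335, 572 and 336 CPM in pXEN, 467 and 454 CPM in nESC and 651 and 693 CPM in pESC. Its change against pESC was −0.70 ± 0.22 (edgeR adjusted p = 0.0335), and its nESC levels lay between those of pXEN1 and pXEN3 and that of pXEN2. The RPL27 call against pESC was lost with the replicate block and without any line but pXEN2 (edgeR adjusted p up to 0.149 without pESC2), and without pXEN2 RPL27 was called against nESC as well (adjusted p = 0.000811). RPL39 had 348, 493 and 383 CPM in pXEN, 489 and 484 CPM in nESC and 408 and 444 CPM in pESC. The line pXEN2 lay above every ESC line, and pXEN1 and pXEN3 lay below them. Both nESC values lay above both pESC values, and no comparison passed with every line. Against nESC the lowest adjusted p over the alternatives was below the threshold.

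**Figure D3:**
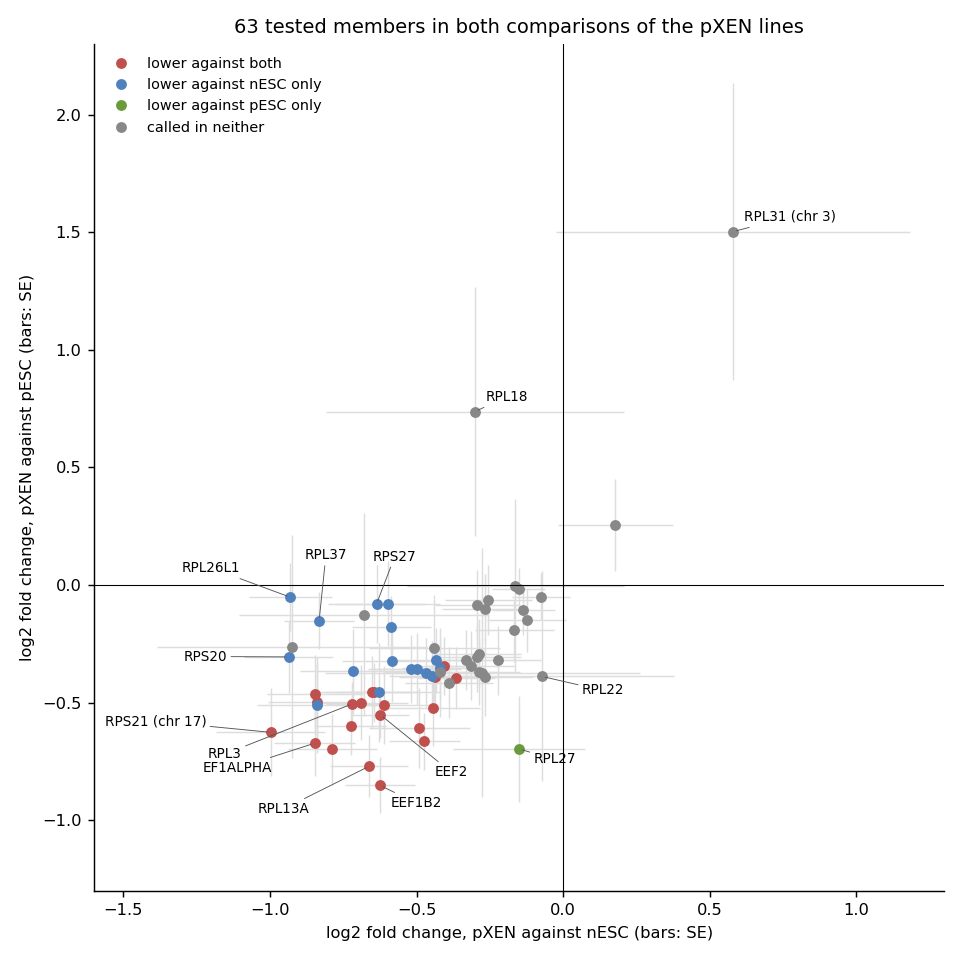
Log2 fold change of 63 tested members in pXEN against nESC (horizontal axis) and against pESC (vertical axis), with SE as bars and colours for the comparisons in which it was called lower. Most points lie below 0 on both axes, RPL26L1 and RPL37 lie near 0 on the vertical axis only, and RPL31 on chromosome 3 lies alone at 0.58 and 1.502. Both axes use the same pXEN libraries.

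Paralogs of ribosomal proteins can replace the usual copy or act outside the ribosome. RPL7L1, which takes part in making the large subunit, had 105, 124 and 91.3 CPM in pXEN, 199 and 170 CPM in nESC and 160 and 187 CPM in pESC. It was lower against nESC (−0.79 ± 0.15, edgeR adjusted p = 0.00286) and against pESC (−0.70 ± 0.15, adjusted p = 0.00605, and 0.0632 without pESC2). RPS27L, a paralog of RPS27 that p53 induces, had 67.5, 105 and 78.7 CPM in pXEN, 124 and 130 CPM in nESC and 83.1 and 94.1 CPM in pESC. RPS27 itself had 544, 767 and 531 CPM in pXEN, 982 and 927 CPM in nESC and 620 and 678 CPM in pESC. Both passed the test against nESC, at −0.60 ± 0.18 for RPS27L (edgeR adjusted p = 0.0219) and −0.64 ± 0.16 for RPS27 (adjusted p = 0.0118), and for both the pESC levels fell within the range of the pXEN lines. The RPS27L call was lost without pXEN1, pXEN3, nESC1 or nESC2 (edgeR adjusted p up to 0.103), and that of RPS27 without nESC1 (0.0714). RPL10L, a testis copy of RPL10, had no count in any library.

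A few members were lower than in nESC in both other types, and for RPL26L1 both calls held in all 17 alternatives. RPS20 had 862, 1197 and 895 CPM in pXEN, 1931 and 1838 CPM in nESC and 1144 and 1290 CPM in pESC, with changes against nESC of −0.94 ± 0.15 in pXEN (edgeR adjusted p = 0.00123) and −0.63 ± 0.17 in pESC (adjusted p = 0.0238). The second RPS20 call was lost with limma at both pseudocounts and without nESC1, nESC2, pESC1 or pESC2 (adjusted p up to 0.155). RPL37 had 632, 758 and 628 CPM in pXEN, 1258 and 1138 CPM in nESC and 712 and 782 CPM in pESC, with changes of −0.83 ± 0.12 (edgeR adjusted p = 0.000622) and −0.68 ± 0.13 (adjusted p = 0.00618, and 0.0635 without pESC1). RPL26L1, a close paralog of RPL26, had 61.1, 70.9 and 58.1 CPM in pXEN, 124 and 118 CPM in nESC and 57.4 and 74.0 CPM in pESC, with changes of −0.93 ± 0.14 (edgeR adjusted p = 0.000872) and −0.88 ± 0.16 (adjusted p = 0.00447). RPL26L1 was the only tested member on chromosome 16, where the 298 genes tested had a median log2 fold change of −0.73 for pXEN against nESC and −0.50 for pESC against nESC. The part of the chromosome in the RPL26L1 result was not tested.

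RPS20, RPL37 and RPL26L1 were among the 4 members called between the ESC types (5.97% of members), all lower in pESC, while 0 were higher. Of all genes tested, 13.3% were called lower and 19.0% higher in pESC against nESC. The median of the members was −0.11, against 0.01 for all genes, and 7 members were lower (10.4%) and 0 higher at an unadjusted p below 0.05, against 18.9% and 24.1% of all genes. The median SE of a member in this comparison was 0.16, so that differences of the size of the median could not be resolved gene by gene. Without pXEN2, 14 members were lower in pESC (20.9%, against 19.4% of all genes) and 1 was higher (RPL27).

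The spread between lines also followed the members as a group in pXEN. The line pXEN2 had the highest level of the 3 pXEN lines for 60 of the 67 members (89.6%), against 42.6% of all genes tested. The median ratio of the highest to the lowest pXEN line was 1.36 for the members and 1.37 for all genes whose mean count in the type reached 10. In the nESC lines the same ratio was 1.05 for the members and 1.15 for all genes, and in the pESC lines 1.11 and 1.13. The sums of the fibroblast markers and of the chromosome Y rows were also highest in pXEN2, and their part in the higher level of the members was not tested.

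Members on chromosome 13 did not share this pattern. RPL24, RPL29 and RPL32 were the 3 tested members there, and pXEN2 was below the mean of pXEN1 and pXEN3 for all 3, at a median log2 difference of −0.08, while pXEN2 was above that mean for 61 of the other 64 members, at a median of 0.42. Over all 1129 genes tested on chromosome 13 the same difference had a median of −0.37, against 0.05 for the genes elsewhere. RPL24 had 681, 657 and 710 CPM in pXEN, 709 and 730 CPM in nESC and 658 and 754 CPM in pESC. RPL32 had 736, 734 and 737 CPM in pXEN, 816 and 819 CPM in nESC and 710 and 780 CPM in pESC. RPL29 had 1609, 1473 and 1596 CPM in pXEN, 1780 and 1645 CPM in nESC and 1555 and 1800 CPM in pESC. None of the 3 was called in any comparison. All genes tested on chromosome 13 had a median log2 fold change of 0.46 for pXEN against nESC and 0.40 against pESC, and the part of the chromosome in the levels of these members was not tested.

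Several members differed between lines of 1 type by more than 2-fold, and the 4 described next were chosen after their values were seen. RPL22, an RNA-binding protein of the large subunit, had 113 CPM in nESC1 and 400 CPM in nESC2, against 264, 186 and 282 CPM in pXEN and 369 and 270 CPM in pESC. RPS16 on chromosome 6 had 499 and 1098 CPM in nESC1 and nESC2, 330, 801 and 364 CPM in pXEN and 523 and 564 CPM in pESC. RPL31 on chromosome 3 had 20.6, 123 and 99.9 CPM in pXEN, 45.9 and 62.9 CPM in nESC and 23.7 and 33.6 CPM in pESC, a 5.97-fold range within pXEN. RPL18 had 13.4 and 40.8 CPM in nESC, 18.1 and 8.29 CPM in pESC and 19.6, 30.5 and 15.7 CPM in pXEN. None was called in any comparison, and their SE against nESC ran from 0.43 to 0.60, against a median of 0.15 for all members. A range over 2-fold was seen for 5 of 67 members in pXEN (7.46%, against 18.1% of genes), 3 in nESC (4.48%, against 7.01%) and 1 in pESC (1.49%, against 5.21%).

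**Figure D4:**
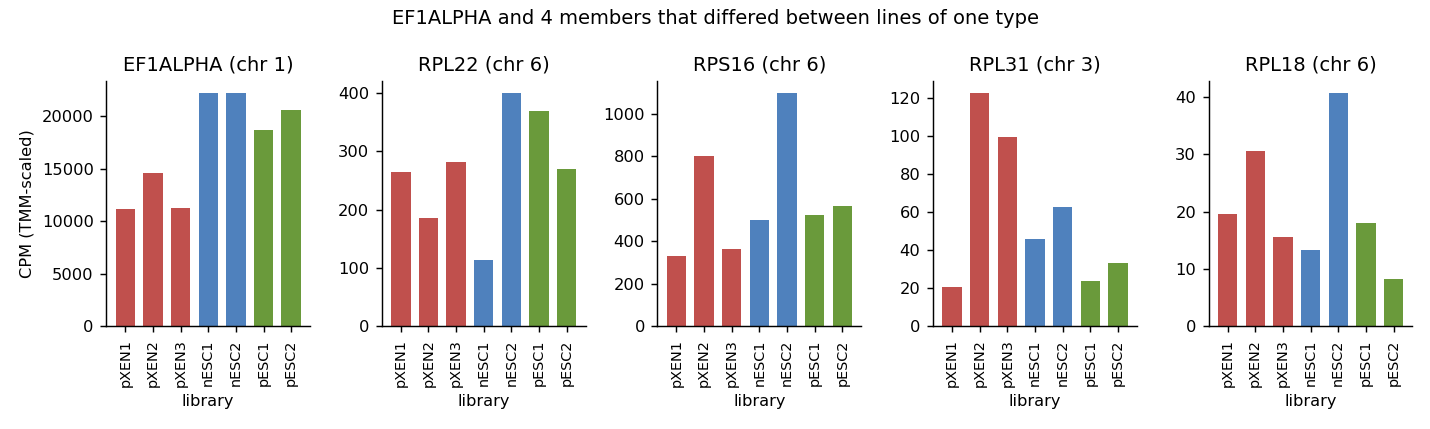
Level in CPM (vertical axes, each from 0) of EF1ALPHA and of 4 members that varied between lines of 1 type, by library (horizontal axes), with red bars for pXEN, blue for nESC and green for pESC. EF1ALPHA is lowest in pXEN, where it runs from 11204 to 14578 CPM, while RPL22 runs from 113 to 400 CPM between the 2 nESC lines.

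Ribosomal protein genes have many near-identical copies, and reads can be split between them. How reads were assigned was not tested. The row of RPL18 held at most 40.8 CPM, while a row without a symbol described as 60S ribosomal protein L18, also on chromosome 6, held between 383 and 557 CPM. The rows of RPL15, RPL28, RPLP2, RPS15A and RPS19 and both RPL36A rows on chromosome 16 had no count in any library, whereas a row without a symbol described as 40S ribosomal protein S19 had between 676 and 1030 CPM. Of the 77 members, 11 are listed with a length equal to their span, which is to say without an intron, and 4 of these were tested (RPL35A, RPL37A, RPL7A and RPS21 on chromosome 7). Levels of RPL18, RPL35A, RPL37A, RPL7A, the minor RPL31 and RPS16 rows and the RPS21 pair are therefore taken as uncertain. Of the members, 23 contain rows of small nucleolar RNAs, which are commonly encoded in the introns of ribosomal protein genes. The symbols RPSA, RPLP0, RPLP1, RPL5, RPL10, RPL26, RPL22L1, RPL39L, RPL3L and RPS14 had no row and are not reported by name.

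Rows without a matching symbol whose description names a cytosolic ribosomal protein or elongation factor numbered 183, of which 32 were tested. Against nESC, 11 were lower (34.4%, against 26.2% of all genes) and 1 was higher in pXEN, and against pESC 5 were lower (15.6%, against 24.4%) and 2 higher. Against nESC, leaving out 1 line gave between 3 lower (without pXEN1, 9.38%, against 22.7% of all genes) and 16 of the 32 (without pXEN2, where 29.8% of all genes were lower). Against pESC it gave between 2 lower (without pESC2, 6.25%, against 15.5%) and 14 (without pXEN2, 43.8%, against 28.9%). In both comparisons the share was below that of all genes whichever line but pXEN2 was left out. The row described as 60S ribosomal protein L5 had 1287, 1699 and 1277 CPM in pXEN, 1994 and 1864 CPM in nESC and 1947 and 2241 CPM in pESC, and was lower in both comparisons (−0.44 and −0.56). Its calls were lost in 9 of 17 alternatives against nESC and without pESC2 against pESC. The row described as 40S ribosomal protein SA, on chromosome 13, was lower in both as well (−0.69 and −0.35), the second with 6 of 17 alternatives giving no call. The row described as 60S ribosomal protein L22-like 1 had 61.2, 39.9 and 45.2 CPM in pXEN, 182 and 96.7 CPM in nESC and 111 and 125 CPM in pESC, with log2 fold changes of −1.52 against nESC (edgeR adjusted p = 0.00202) and −1.28 against pESC (adjusted p = 0.00555). Of its 2 nESC libraries, nESC1 was the higher, the reverse of RPL22 in the same lines.

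Genes that build the ribosome had medians further below 0 in pXEN cells than the members had, a difference that was not tested. Of 45 tested genes of ribosome biogenesis, 39 were lower and 0 higher against nESC, with a median log2 fold change of −0.94, and 36 were lower and 1 higher (POLR1D) against pESC, with a median of −0.72. These were 86.7% and 80.0% of the list, against 26.2% and 24.4% of all genes. Leaving out 1 line gave between 33 (without nESC1, 73.3%, against 18.7% of all genes) and 43 (without pXEN2) lower against nESC and between 29 (without pESC2, 64.4%, against 15.5%) and 39 (without pXEN2) against pESC. NPM1, the abundant nucleolar chaperone nucleophosmin, had 860, 1076 and 786 CPM in pXEN, 4172 and 3912 CPM in nESC and 2025 and 2328 CPM in pESC, with log2 fold changes of −2.16 (edgeR adjusted p = 1.31e-05) and −1.26 (adjusted p = 0.000272). FBL, the methyltransferase fibrillarin that modifies ribosomal RNA, had 112, 131 and 106 CPM in pXEN, 408 and 396 CPM in nESC and 255 and 254 CPM in pESC, with changes of −1.79 and −1.13. DDX21, a nucleolar RNA helicase, changed by −1.70 and −1.33. NPM1 lies on chromosome 16, whose median is given above, and FBL and DDX21 lie on chromosomes 6 and 14.

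Of 56 tested mitochondrial ribosomal proteins, 36 were lower and 0 higher in pXEN against nESC (median −0.60), and 23 were lower and 2 higher against pESC (median −0.30). These were 64.3% and 41.1% lower, against 26.2% and 24.4% of all genes. The 2 higher against pESC ran from 0 to 3 over the alternatives. The 23 became 11 without pESC2 (19.6%, against 15.5%), 15 without pXEN1 (26.8%, against 20.8%) and 15 with the line number as a replicate block (26.8%, against 19.8%). Of 29 initiation factors, 15 were lower and 3 higher against nESC and 17 were lower and 1 higher against pESC, with medians of −0.44 in both. These were 51.7% and 58.6% lower. The 17 became 8 without pESC2 (27.6%, against 15.5%) and 11 without pESC1 (37.9%, against 15.9%), and the 3 higher against nESC became 0 without nESC1, 1 without nESC2 and 5 without pXEN2. EIF4A1, the helicase of the cap-binding complex, had 412, 406 and 340 CPM in pXEN, 751 and 676 CPM in nESC and 593 and 633 CPM in pESC, and was lower in both (−0.89 and −0.67). EIF1B was the initiation factor called higher in both comparisons (0.69 and 0.70) and lies on chromosome 13. Its calls were lost without nESC1 (edgeR adjusted p = 0.0519) and without pESC2 (0.0506). Of 7 other TOP mRNAs, 3 were lower against nESC (42.9%, against 26.2% of all genes) and 4 against pESC (57.1%, against 24.4%). PABPC1, the poly(A)-binding protein, was at −1.08 and −0.64, and NAP1L1, a histone chaperone, at −1.20 and −1.36. Of 6 further elongation, termination and recycling factors, 3 and 4 were lower, with ABCE1, which splits the ribosome after termination, at −0.43 (not called without nESC1) and −0.58. Over the left-out pXEN lines the TOP mRNAs lower ran from 3 to 7 and from 2 to 6, and the further factors from 2 to 4 and from 3 to 5. Without pXEN1, 42.9% and 28.6% of the TOP mRNAs were lower, against 22.7% and 20.8% of all genes. Of the 6 further factors, 2 and 3 were then lower. Leaving out nESC1 or pESC2 leaves 1 library in that type. These fits called fewer further factors and cannot decide whether their share exceeded that of all genes. The medians of the further factors were then −0.299 against nESC and −0.436 against pESC.

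**Figure D5:**
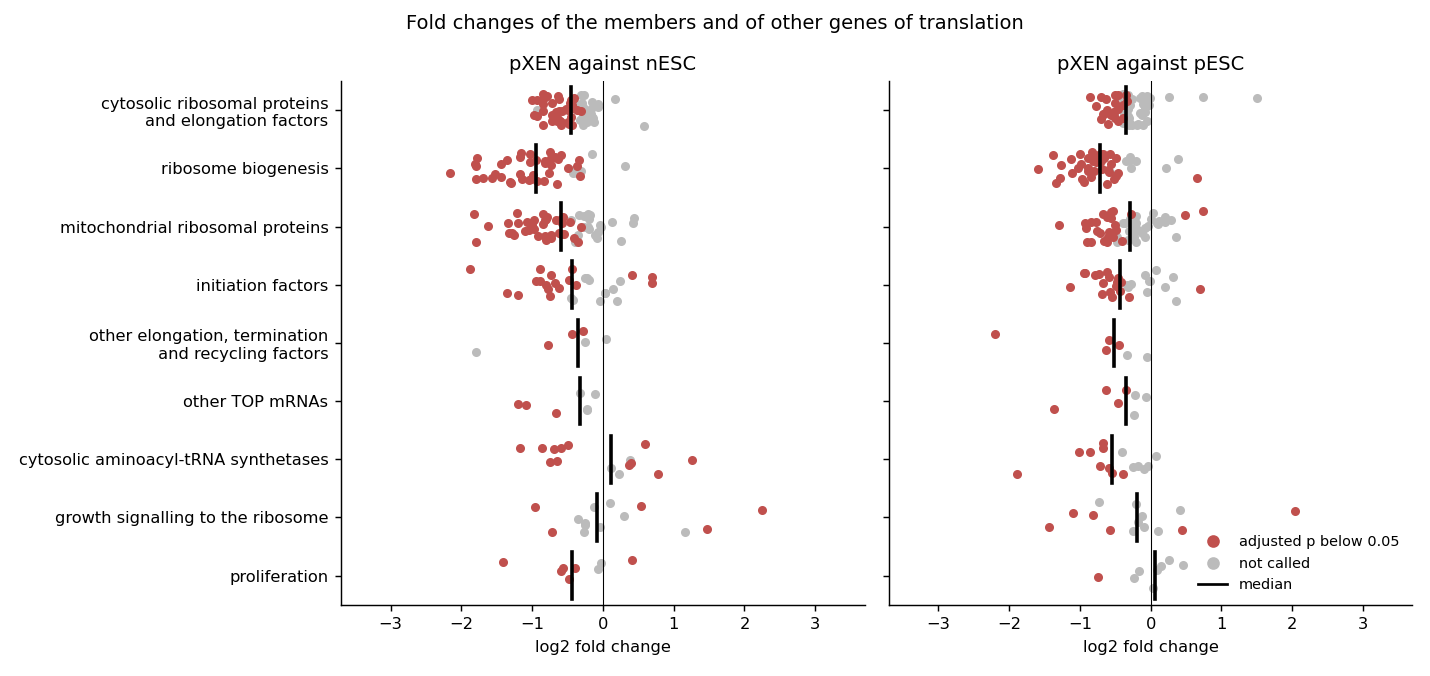
Log2 fold change (horizontal axes) of pXEN against nESC (left) and pESC (right) for the members and for 8 lists of related genes (vertical axis), with 1 point per gene, red for an adjusted p below 0.05 and a bar at the median. The points of ribosome biogenesis reach −2.16 against nESC, past the lowest member at −0.997, and the tRNA synthetases lie on both sides of 0 on the left.

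The cytosolic aminoacyl-tRNA synthetases did not move one way. Of 15 rows, 5 were higher and 7 lower in pXEN against nESC, 0 were higher and 9 lower against pESC, and 9 were higher and 0 lower in pESC against nESC. In the first comparison 33.3% were thus higher and 46.7% lower, against 28.3% and 26.2% of all genes. In the second 60.0% were lower, against 24.4%, and in the third 60.0% were higher, against 19.0%. AARS, the alanine enzyme, had 247, 221 and 255 CPM in pXEN, 99.4 and 102 CPM in nESC and 228 and 231 CPM in pESC. One row of this list, WARS on chromosome 4, is described as mitochondrial. Of 14 genes of growth signalling to the ribosome, 3 were higher and 2 lower against nESC and 2 higher and 4 lower against pESC. These were 21.4% higher and 14.3% lower against nESC (28.3% and 26.2% of all genes) and 14.3% higher and 28.6% lower against pESC (23.9% and 24.4%), below the shares of all genes but for the last. MYCN, a transcription factor that drives ribosome synthesis, had 215, 156 and 200 CPM in pXEN. It had 37.6 and 42.7 CPM in nESC and 189 and 216 CPM in pESC. Its part in the levels of the members was not tested. DEPTOR, an inhibitor of mTOR, was higher in pXEN in both comparisons (1.46, not called without nESC2, and 2.04) at levels of 5.75 to 11.7 CPM. Of 8 proliferation genes, 1 was higher and 5 were lower against nESC, and 0 were higher and 1 (PCNA) was lower against pESC, which is 62.5% and 12.5% lower. Without nESC1, 3 synthetases were higher against nESC, without nESC2 3 proliferation genes were lower against nESC, and without either pESC line 2 growth signalling genes were lower against pESC (14.3%, against 15.9% and 15.5% of all genes). All these lists were chosen with earlier results of these data known.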

How the data were processed

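Directional libraries were made from rRNA-depleted RNA with the NEBNext Ultra kit and sequenced on a NovaSeq platform. The authors deposited raw read counts per gene and FPKM values per gene. Their processing notes name HISAT2 2.0.5, featureCounts 1.5.0-p3 and edgeR 3.22.5 and the build Sscrofa10.2, but the strand setting and the treatment of multi-mapped reads are not given in the sources used here. The deposited FPKM values equal the counts divided by listed length and by 1 constant per library, which lay within 1.01 to 1.02 times the TMM-scaled total. The deposited counts were tested with edgeR 4.0.16 (R 4.3.3) by the quasi-likelihood test, with TMM factors, the default filter on low counts, 1 coefficient per cell type over all 7 libraries and Benjamini-Hochberg adjustment over the 17447 genes kept. The biological coefficient of variation was 0.223. The method was tested on simulated counts. Members, lists and tests were chosen with earlier results of these data known. Named were the elongation factors, the paralogs, 12 proteins picked for known roles and, in each comparison, the 5 called members with the largest and the 5 with the smallest change at a mean log2 CPM of at least 5. Alternatives were other scalings, no filter, DESeq2, limma on log2 FPKM, a replicate block, left-out lines and other member sets. A few members enter the counts and medians but are not reported here by name. Sequences are not shown.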

Additional observations from a re-analysis of the deposited data

How the results depend on the processing

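Members stayed lower on balance in both pXEN comparisons under every alternative run, and the number of calls was what moved. Upper-quartile scaling and library totals moved the median of all genes against nESC to −0.16 and −0.18 and against pESC to −0.09 and −0.19. The members' medians were then −0.62 and −0.64 against nESC and, with library totals, −0.53 against pESC, and relative to the shift they were −0.46 under both scalings against nESC and −0.34 under both against pESC. Under these scalings 40 and 48 members were lower against pESC (59.7% and 71.6%, against 27.6% and 31.0% of all genes), and upper-quartile scaling gave 8 lower in pESC against nESC (11.9%, against 16.5%). DESeq2 called 41 and 33 members lower against nESC and pESC (61.2% and 49.3%, against 21.6% and 20.6% of the genes given an adjusted p), and limma on log2(FPKM + 1) called 33 and 19 (49.3% and 28.4%, against 26.7% and 25.4%). Fitting only the libraries compared gave 14 lower (20.9%, against 19.9% of all genes) and 1 higher (RPL27) in pESC against nESC.

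The deviations of same-numbered lines from the mean of their type had correlations between −0.011 and 0.060. In a type with 2 lines these deviations mirror each other, so the check cannot decide whether the numbers pair the samples. With the number as a replicate block, 28 members were lower against nESC (41.8%, against 21.9% of all genes), 11 against pESC (16.4%, against 19.8%) and 5 in pESC against nESC (7.46%, against 11.4%). Adding the 32 tested unnamed ribosomal rows, an alternative chosen after seeing the data, added 11 lower and 1 higher against nESC. Against pESC it added 5 lower and 2 higher. Of all genes tested, 26.2% and 24.4% were lower in these comparisons. As a share of summed FPKM the members took 11.3%, 17.2% and 16.2% in pXEN, nESC and pESC, and as a share of counts outside the mitochondrial genome 6.75%, 11.8% and 10.5%. Leaving out 1 line gave between 18 and 58 lower against nESC, between 7 and 53 against pESC and between 1 and 14 in pESC against nESC, with 0 to 1 higher in each (RPL31 in both pXEN comparisons without pXEN1, RPL22 against nESC and in pESC against nESC without nESC2, and RPL27 in pESC against nESC without pXEN2). Without pXEN2, the 14 were 20.9% of the members, against 19.4% of all genes. Over the left-out lines the medians ran from −0.62 to −0.38, from −0.50 to −0.28 and from −0.20 to −0.05.

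Of 1122 alternative values of the named members, 969 kept their direction and side of the threshold, 92 lost and 40 gained a call and 21 changed sign. RPL22 against nESC was 0.18 with limma at both pseudocounts (1 and 0.1), 0.09 without pXEN2 and 1.11 without nESC2 (edgeR adjusted p = 0.0223), and in pESC against nESC it was −0.33 without nESC1. Against pESC, RPS27 was 0.0031 with the replicate block, 0.0015 without pXEN1 and 0.017 without pXEN3, RPL39 was 0.041 without pXEN1, RPS27L was 0.056 without pXEN1 and 0.00408 without pESC2, and RPL26L1 was 0.010 with the replicate block, 0.00950 without pXEN3 and 0.13 without pESC2. In pESC against nESC, leaving out pESC1 gave 0.027 for EEF1G, 0.0092 for RPS6, 0.015 for RPL11 and 0.022 for RPL7L1, and RPL7L1 was 0.030 without nESC1. RPL30 was −0.058 with upper-quartile scaling and −0.035 without pESC2. Over the left-out lines, the lowest values against pESC were −0.27 for RPS27, −0.22 for RPL39, −0.27 for RPS27L and −0.23 for RPL26L1, and that of RPL22 against nESC was −0.72. In pESC against nESC the lowest were −0.11 for EEF1G, −0.12 for RPS6 and −0.14 for RPL11, and the highest 1.496 for RPL22 and 0.11 for RPL30. The cause of these changes was not tested. The spread among 2 or 3 lines per type entered every call.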
